A study of Mus musculus with 6 samples.

Results

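Guca1b and 8 relatives in the neuronal calcium sensor family were followed in brain tissue, cerebellum by the series title, of 3 Gb5-deficient mice (Gb5 KO) and 3 wild-type mice (WT), each measured on 1 Affymetrix expression array. The genes were picked from a platform of 18193 named genes: Guca1b for its much higher signal on the Gb5 KO arrays, and Guca1a, Rcvrn, Hpca, Hpcal1, Hpcal4, Ncald, Vsnl1 and Ncs1 as its relatives. All 16 probes that the platform annotation assigns to exactly 1 of these 9 genes were used, 2 for Guca1b and 14 for the other 8 genes, and no further probe named a member together with another gene. Gb5 is the G protein beta subunit encoded by Gnb5, and its loss is the only genetic change the labels name; they give no age, strain or sex per animal and describe matched littermates without saying which mice shared a litter.

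Neuronal calcium sensors are small proteins with EF-hand motifs, helix-loop-helix folds that bind calcium, and most carry an N-terminal fatty acid that takes part in attaching them to membranes. Guca1b and Guca1a encode the guanylate cyclase activating proteins of retinal photoreceptors, which switch on membrane guanylate cyclase when calcium falls after light. Recoverin, encoded by Rcvrn, restrains rhodopsin kinase in the same cells. The other members act in neurons of the brain: hippocalcin (Hpca), the hippocalcin-like proteins (Hpcal1, Hpcal4), neurocalcin delta (Ncald), visinin-like 1 (Vsnl1) and neuronal calcium sensor 1 (Ncs1), which binds a phosphatidylinositol 4-kinase.

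The arrays and the tissue were checked first. The Gnb5 probe 1422208_a_at read 3.65, 3.36 and 2.96 (log2) on Gb5 KO arrays 4, 5 and 6, against 8.80, 8.51 and 8.70 on WT arrays 1, 2 and 3. Array medians ran from 6.48 to 6.57 and the 15 array pairs correlated at 0.991 to 0.997 (Pearson's r across probes, which are not independent replicates), and the number of arrays limits the precision. Gb5 KO array 6 differed from the other 5 in sex-linked signal, with Eif2s3y probe 1417210_at at 11.80 against 3.19 to 3.43 and Xist probe 1427262_at at 6.64 against 11.11 to 11.35, which goes against the labelled sex matching. Markers of the cerebellum were bright: all 14 probes of 6 Purkinje cell genes and all 15 probes of 8 granule cell genes lay above the median signal of all probes, with the Purkinje gene Pcp2 up to the 98.7th percentile (probe 1419084_a_at). By the same measure 8 of 13 probes of hippocampal and cortical genes, for 6 of 9 genes, also lay above the median. A signal above the median therefore does not by itself tell the cerebellum from other brain tissue.

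Signal of Guca1b differed between its own probes. Probe 1425138_at read 9.87, 9.61 and 9.97 (log2) on the Gb5 KO arrays, against 5.26, 5.04 and 4.73 on the WT arrays. All Gb5 KO arrays lay above all WT arrays, as they did for 8.25% of all probes, and the choice of Guca1b favours this separation. The lowest Gb5 KO array stood far above the highest WT array. The means were 9.82 ± 0.19 in Gb5 KO and 5.01 ± 0.27 in WT (SD, n = 3 each). Their difference was 4.80 (log2), a signal ratio of 27.9 on the linear scale. Because Guca1b was picked on this contrast, the difference is given as a description with no test. Among the 45037 probes it was the highest positive log2 fold change, followed by the Y-linked Eif2s3y (2.83), which comes from Gb5 KO array 6 alone, and its absolute size ranked 2 after the fall of Gnb5. It lay between 4.66 and 4.93 when each array in turn was left out, and was 4.73 without Gb5 KO array 6. In bulk tissue fewer or more cells of a type cannot be told apart from less or more RNA per cell.

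The second Guca1b probe did not share this difference. Probe 1425441_at read 3.61, 3.64 and 3.52 on the Gb5 KO arrays, against 3.75, 3.85 and 3.70 on the WT arrays. Here the Gb5 KO arrays all lay below the WT arrays, as 5.34% of all probes did, with means of 3.59 ± 0.06 in Gb5 KO and 3.77 ± 0.08 in WT (SD, n = 3 each). The log2 fold change of this dim probe was -0.18 (95% interval -0.38 to 0.02), and it ranked at the 16.5th percentile by mean signal. For the first probe the mean lay at the 82.7th percentile in Gb5 KO and at the 33.6th in WT. The annotation lists a separate source cDNA for each Guca1b probe, and neither is a RefSeq transcript of the gene in the table used for names; of the 16 member probes 5 have a RefSeq transcript of their gene as source, those of Guca1a, Rcvrn, Hpcal1 and Vsnl1. Which part of the gene each probe reads was not analysed here.

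**Figure D1:**
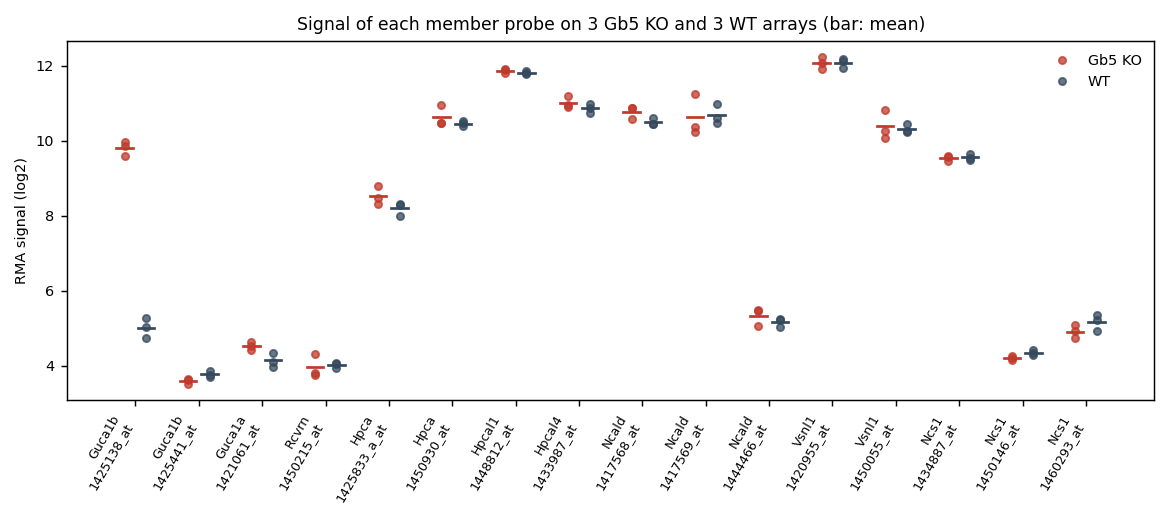
Log2 signal (vertical axis) of each of the 16 member probes on the single arrays, red points for Gb5 KO and dark points for WT, with a bar at each mean. Guca1b probe 1425138_at stands at 9.61 to 9.97 in Gb5 KO against 4.73 to 5.26 in WT, while for the other 15 probes the genotype means differ by at most 0.39.

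Among the 14 probes of the other 8 genes, 0 passed an adjusted p of 0.05 by limma, and 2 had an unadjusted p under 0.05. Over all 45037 probes 10 passed, a share of 0.0222%. Of these, 1 was higher in Gb5 KO, a share of 0.00222%, and 9 were lower, a share of 0.02%. The 1 higher probe was Guca1b probe 1425138_at itself, picked on this contrast, so its passing is no separate result. The 9 lower included Gnb5. Of all probes 7.61% had an unadjusted p under 0.05. Without WT array 1 the number passing over all probes was 24, without Gb5 KO array 4 it was 16, and without WT array 3 or Gb5 KO array 6 it was 6. With any single array left out, 0 of the 14 probes passed. Of the 14 log2 fold changes 8 were above 0, against 53.5% of all probes, and they ran from -0.26 to 0.39 with a median of 0.07, against a median of 0.01 for all probes. Their SE ran from 0.06 to 0.25, against a median of 0.12 for all probes.

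**Figure D2:**
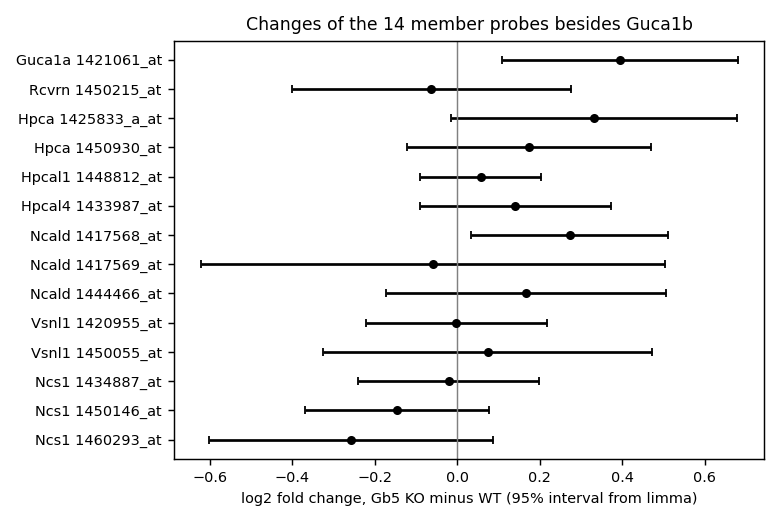
Log2 fold change of Gb5 KO minus WT (horizontal axis) for the 14 probes of the 8 relatives of Guca1b, with 95% intervals from limma. Values lie between -0.26 and 0.39, and the intervals of 2 probes, Guca1a 1421061_at and Ncald 1417568_at, do not reach 0.

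The photoreceptor relatives were dim in both genotypes. Guca1a, the gene next to Guca1b on mouse chromosome 17, read 4.43, 4.63 and 4.53 on the Gb5 KO arrays, against 4.10, 4.35 and 3.96 on the WT arrays. All 3 Gb5 KO arrays lay above all 3 WT arrays, a pattern shown by 8.25% of all probes, and the mean signal lay at the 25.5th percentile. The log2 fold change of Guca1a was 0.39 (95% interval 0.11 to 0.68; SE 0.13), with a limma adjusted p of 0.605, so it did not pass. Recoverin (Rcvrn) read 3.75, 4.30 and 3.81 on the Gb5 KO arrays, against 4.03, 3.93 and 4.08 on the WT arrays. Its groups overlapped, with Gb5 KO array 5 the highest of the 6, and the log2 fold change was -0.06 (95% interval -0.40 to 0.28; limma adjusted p = 0.927).

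Sequence upstream of the start was at hand from RefSeq (GRCm38.p6) for 6 of the 9 genes, and not for Guca1b, Rcvrn or Ncald. The 250 bases before the start of Guca1a, the dim neighbour of Guca1b, and of Hpcal1, a member with bright signal, are shown to set the photoreceptor and the broadly expressed gene side by side. Capitals mark each CG dinucleotide. Guca1a lies on the minus strand at chr17:47400607-47400856, and Hpcal1 on the plus strand at chr12:17690559-17690808.
Guca1a: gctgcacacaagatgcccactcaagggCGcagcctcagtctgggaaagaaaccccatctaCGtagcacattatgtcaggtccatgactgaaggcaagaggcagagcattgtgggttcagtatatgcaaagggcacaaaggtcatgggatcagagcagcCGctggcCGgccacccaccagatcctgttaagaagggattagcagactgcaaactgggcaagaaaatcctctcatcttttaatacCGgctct
Hpcal1: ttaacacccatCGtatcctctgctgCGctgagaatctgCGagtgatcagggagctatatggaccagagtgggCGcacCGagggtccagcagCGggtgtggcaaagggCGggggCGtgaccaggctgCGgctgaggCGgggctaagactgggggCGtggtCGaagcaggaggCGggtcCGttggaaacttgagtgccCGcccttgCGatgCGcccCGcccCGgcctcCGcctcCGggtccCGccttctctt
The Guca1a stretch holds 5 CG dinucleotides and the Hpcal1 stretch 22, against a median of 6 over 32851 promoters of the same length. The other 7 member promoters ranged from 3, in a promoter of Hpca, to 34, in Ncs1. Those of Vsnl1, also bright, held 4 and 14. The Guca1a count was near the median, with 49.6% of all promoters at or below it, and was not particular to this gene. The letters TAATCC, the core recognised by the photoreceptor homeodomain factor CRX and its OTX relatives, were searched on both strands, with no other motif searched. They occur in the Guca1a stretch, as GGATTA, and on either strand in 1 of 3 promoters of Hpca and in 6.25% of all promoters. The signal of Crx itself was low, with its 2 probes at the 0.173th and 8.53th percentile. Whether CRX or its OTX relatives act on any member was not tested.

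Hippocalcin and its closest homologues were bright. Hpca probe 1450930_at read 10.47, 10.95 and 10.49 on the Gb5 KO arrays, against 10.39, 10.46 and 10.52 on the WT arrays. Gb5 KO array 5 was highest while the other 5 arrays lay close together, and the log2 fold change was 0.17 (95% interval -0.12 to 0.47; limma adjusted p = 0.748). Without Gb5 KO array 5 it was 0.02. The second Hpca probe, 1425833_a_at, read 8.32, 8.78 and 8.49 on the Gb5 KO arrays, against 8.29, 7.98 and 8.33 on the WT arrays. The lowest Gb5 KO array (8.323) lay just below the highest WT array (8.325), and both Hpca probes had array 5 as the highest, with a log2 fold change of 0.33 for this probe (95% interval -0.02 to 0.68; limma adjusted p = 0.668) and 0.21 without that array.

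Hpcal1, a relative found in many tissues, varied least. It read 11.88, 11.80 and 11.92 on the Gb5 KO arrays, against 11.86, 11.78 and 11.80 on the WT arrays. The groups overlapped, and the log2 fold change was 0.06 (95% interval -0.09 to 0.20; SE 0.06; limma adjusted p = 0.828), with the smallest SE of the 14 probes. Without Gb5 KO array 5 it was 0.09, and without array 6 it was 0.03. Hpcal4 read 10.89, 11.18 and 10.95 on the Gb5 KO arrays, against 10.75, 10.98 and 10.86 on the WT arrays. Array 5 was again the highest, the groups overlapped, and the log2 fold change was 0.14 (95% interval -0.09 to 0.37; limma adjusted p = 0.737). It was 0.05 without Gb5 KO array 5 and 0.08 without WT array 1.

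Neurocalcin delta had 3 probes that did not move together. Ncald probe 1417568_at read 10.58, 10.87 and 10.88 on the Gb5 KO arrays, against 10.45, 10.44 and 10.62 on the WT arrays. Only Gb5 KO array 4 lay within the WT range, and the log2 fold change was 0.27 (95% interval 0.03 to 0.51; limma adjusted p = 0.637). Probe 1417569_at, from the same source cDNA by the annotation, read 10.37, 11.25 and 10.24 on the Gb5 KO arrays, against 10.60, 10.47 and 10.98 on the WT arrays. Its Gb5 KO arrays held both the highest and the lowest of the 6 values, with a log2 fold change of -0.06 (95% interval -0.62 to 0.51; limma adjusted p = 0.961). The remaining dim probe, 1444466_at, had a log2 fold change of 0.17 (limma adjusted p = 0.784), which was 0.31 without Gb5 KO array 4, 0.09 without array 5, 0.10 without array 6 and 0.10 without WT array 1.

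Visinin-like 1, a calcium sensor of brain neurons, was bright by both of its probes, at the 97.0th and 86.9th percentiles of mean signal. Vsnl1 probe 1420955_at read 12.23, 11.93 and 12.09 on the Gb5 KO arrays, against 12.14, 12.18 and 11.93 on the WT arrays. The groups overlapped, and the log2 fold change was 0.00 (-0.00247; 95% interval -0.22 to 0.22; limma adjusted p = 0.997). Probe 1450055_at read 10.26, 10.83 and 10.09 on the Gb5 KO arrays, against 10.26, 10.24 and 10.45 on the WT arrays. Here Gb5 KO array 5 lay above the WT range and array 6 below it, and the log2 fold change was 0.07 (95% interval -0.32 to 0.47; limma adjusted p = 0.926). It was -0.15 without array 5 and 0.23 without array 6.

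Neuronal calcium sensor 1 was measured by 1 bright and 2 dim probes. Ncs1 probe 1434887_at read 9.60, 9.57 and 9.45 on the Gb5 KO arrays, against 9.48, 9.65 and 9.55 on the WT arrays. The groups overlapped, and the log2 fold change was -0.02 (95% interval -0.24 to 0.20; limma adjusted p = 0.966). The dim probe 1450146_at read 4.142, 4.257 and 4.1997 on the Gb5 KO arrays, against 4.42, 4.34 and 4.27 on the WT arrays. All 3 Gb5 KO arrays lay below all 3 WT arrays, by a small margin and as 5.34% of all probes did, with a log2 fold change of -0.15 (limma adjusted p = 0.723). The other dim probe, 1460293_at, had a log2 fold change of -0.26 (limma adjusted p = 0.702). It was -0.17 without Gb5 KO array 5, -0.16 without WT array 1 and -0.38 without WT array 3.

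Gb5 KO array 5 was the highest of the 6 arrays for 8 of the 14 probes, against 24.4% of all probes. The gap of array 5 to the mean of Gb5 KO arrays 4 and 6 had a median of 0.19 (log2) over these 14 probes, against 0.01 over all probes, and was widest for Ncald probe 1417569_at (0.95), Vsnl1 probe 1450055_at (0.66), Rcvrn (0.53) and Hpca probe 1450930_at (0.47). On the same array the mean signal of the 15 granule cell probes was the lowest of all 6 arrays, at 11.23 against 11.53 and 11.43 on the other Gb5 KO arrays and 11.38 to 11.61 in WT. The mean of the 14 Purkinje cell probes was also lowest there, at 10.58 against 10.92 and 10.72 on the other Gb5 KO arrays and 10.65 to 10.82 in WT. For 13 probes of hippocampal and cortical genes the mean was 7.10 on array 5, against 6.95 and 7.10 on the other Gb5 KO arrays and 7.02 to 7.09 in WT. The part of tissue makeup in the array 5 values was not tested.

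**Figure D3:**
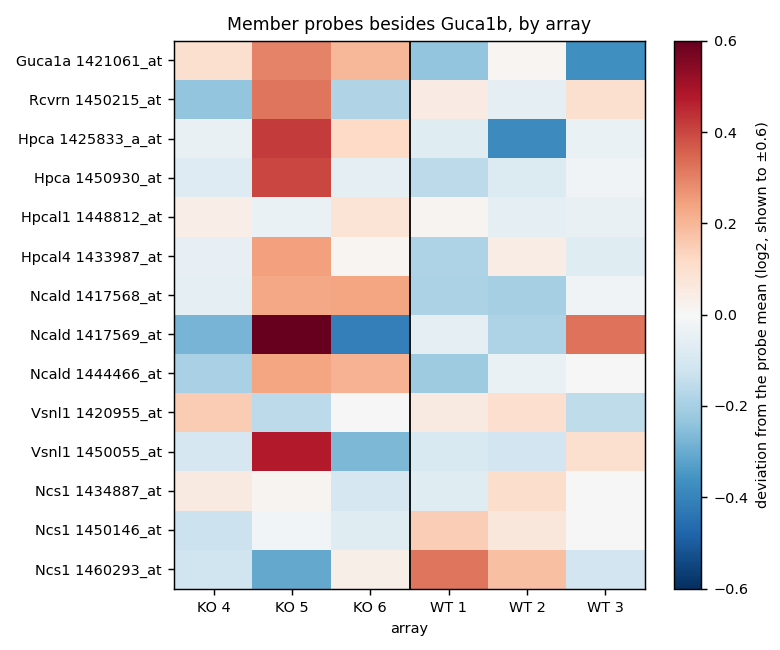
Deviation of each of the 14 member probes besides Guca1b (rows) from its own mean over the 6 arrays (columns, Gb5 KO left of the line), in log2 units. Array 5 of the Gb5 KO group carries the highest value in 8 of the 14 rows, and Ncald probe 1417569_at departs most there.

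Other calcium sensors and the enzymes they act on were also described, and 0 of these probes passed by limma. At an unadjusted p under 0.05 there were 1 of 12 KChIP probes, 1 of 12 cyclase probes, 0 of 32 partner probes and 3 of 39 probes of other EF-hand genes, against 7.61% of all probes. The KChIP branch, whose products modulate A-type potassium channels, had 12 probes for 4 genes and a median log2 fold change of 0.04. Of these 12 probes 6 were above 0. The highest values were 0.30 for Kcnip3 probe 1418544_at and 0.30 for Kcnip1 probe 1448459_at. The lowest were -0.28 for Kcnip4 probe 1451840_at and -0.28 for Kcnip2 probe 1425870_a_at. The other Kcnip3 probe, 1449129_a_at, gave -0.03, and the other Kcnip1 probes gave 0.17 to 0.18. Guanylate cyclases, the targets of the Guca1 proteins among them, had 12 probes for 8 genes and a median of -0.03. The values farthest from 0 were those of soluble cyclase subunits, 0.25 for Gucy1a2 by its dim probe 1459336_at (limma adjusted p = 0.619) and -0.21 for Gucy1b1 by probe 1420871_at. The brighter Gucy1a2 probe, 1429579_at, gave -0.10, and the brighter Gucy1b1 probe, 1420872_at, gave -0.07. Retinal Gucy2e read 2.98, 2.96 and 2.89 on the Gb5 KO arrays, against 3.11, 3.01 and 3.15 on the WT arrays (log2 fold change -0.15; limma adjusted p = 0.679), with a mean at the 5.36th percentile of all probes. The soluble cyclase subunit Gucy1a1 was bright by probe 1434141_at, at 12.05, 12.12 and 11.82 in Gb5 KO, against 12.08, 11.98 and 12.14 in WT. That probe gave a log2 fold change of -0.07, against 0.16 for probe 1420533_at and 0.13 for probe 1420534_at of the same gene. Partners of the sensors had 32 probes for 13 genes with a median of 0.03, the highest being the postsynaptic scaffold Dlg4 at 0.49 by probe 1460261_at and -0.12 by probe 1419580_at, followed by the calcium-stimulated adenylyl cyclase Adcy1 at 0.31 by probe 1445359_at. The brighter Adcy1 probe, 1456487_at, gave 0.05. Other EF-hand sensors and buffers had 39 probes for 21 genes with a median of 0.00 (0.00196). The highest value was 0.55 for the Purkinje calcium buffer Calb1 by probe 1458836_at, while its brightest probe, 1417504_at, gave -0.04. The lowest was -0.43 for Necab3 by probe 1447907_x_at, while its brighter probe, 1431946_a_at, gave 0.02.

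No photoreceptor probe showed a difference of the size seen for Guca1b. Of 32 listed genes 29 had single-gene probes, 42 in all, of which 0 passed by limma and 1 had an unadjusted p under 0.05, against 0.0222% and 7.61% of all probes. The log2 fold change was above 0 for 31 of the 42, against 53.5% of all probes. A single one, of the retinal lipid transporter Abca4, lay above the median signal of all probes. Their median log2 fold change was 0.04, against 0.01 for all probes, and the values ran from -0.28 for Prph2, a disc rim protein, to 0.41 for Gnat1, rod transducin alpha, with the rod transcription factor Nrl next at 0.33 by probe 1450946_at. Gnat1 read 4.10, 4.37 and 4.89 on the Gb5 KO arrays, against 3.83, 4.22 and 4.07 on the WT arrays, and the groups overlapped (limma adjusted p = 0.669). The mean over the 42 probes lay between 4.08 and 4.23 on the Gb5 KO arrays, against 4.12 to 4.14 on the WT arrays. Pinealocyte genes, which share part of the photoreceptor programme, had 10 probes for 5 genes. Of these, 0 passed by limma and 0 had an unadjusted p under 0.05, while 8 were above 0, with a median of 0.04. Crx and Gngt1 are on both lists, and every probe of theirs was above 0. Most of these 8 were therefore already counted among the 31 photoreceptor probes, so the counts are not independent. The pinealocyte values farthest from 0 were 0.22 for Lhx4 probe 1439905_at and 0.14 for Gngt1 probe 1425219_x_at. The melatonin enzyme Aanat read 5.38, 5.33 and 5.50 in Gb5 KO, against 5.32, 5.68 and 5.33 in WT.

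**Figure D4:**
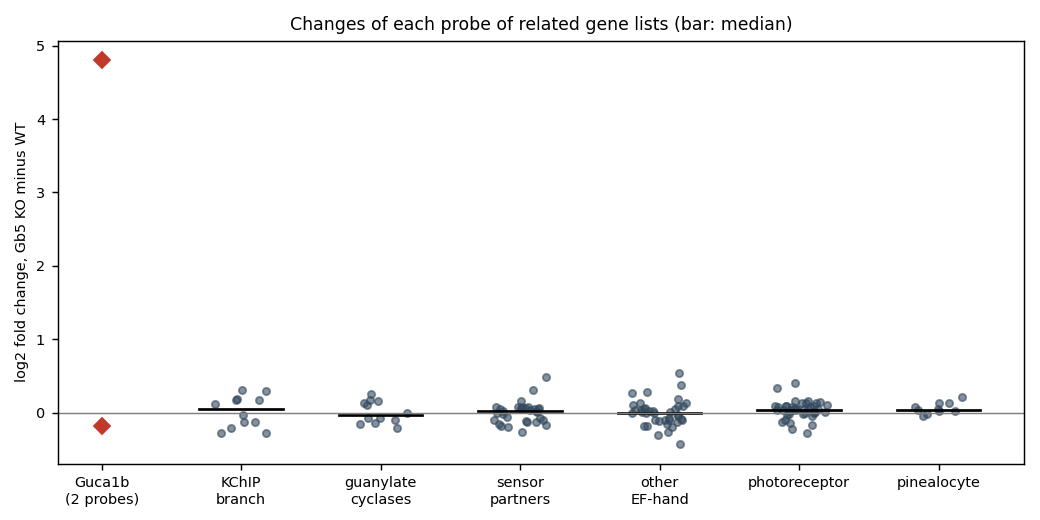
Log2 fold change of Gb5 KO minus WT (vertical axis) for both Guca1b probes (red) and for every probe of 6 related gene lists (dark points, bar at the median). The Guca1b probes stand at 4.80 and -0.18, and all list values lie between -0.43 and 0.55.

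Genes beside Guca1b on chromosome 17, among them Prph2 of the photoreceptor list, were compared in gene order. The 10 genes on each side that had a probe gave 37 probes, of which 0 passed by limma, 7 had an unadjusted p under 0.05 and 22 had a log2 fold change above 0, against 0.0222%, 7.61% and 53.5% of all probes. Their median was 0.08, with a range from -0.47 to 0.39. In 8 of the 37 all Gb5 KO arrays lay above all WT arrays, and in 3 all lay below, against 8.25% and 5.34% of all probes. The value at the top of this range was that of Guca1a, the nearest gene on one side, and the lowest was that of 1 of 4 probes of Bicral, probe 1443935_at. The nearest gene on the other side, Mrps10 of the mitochondrial ribosome, read 9.931, 10.47 and 9.990 on the Gb5 KO arrays, against 9.997, 9.906 and 10.25 on the WT arrays by probe 1428153_at, and its groups overlapped (log2 fold change 0.08).

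**Figure D5:**
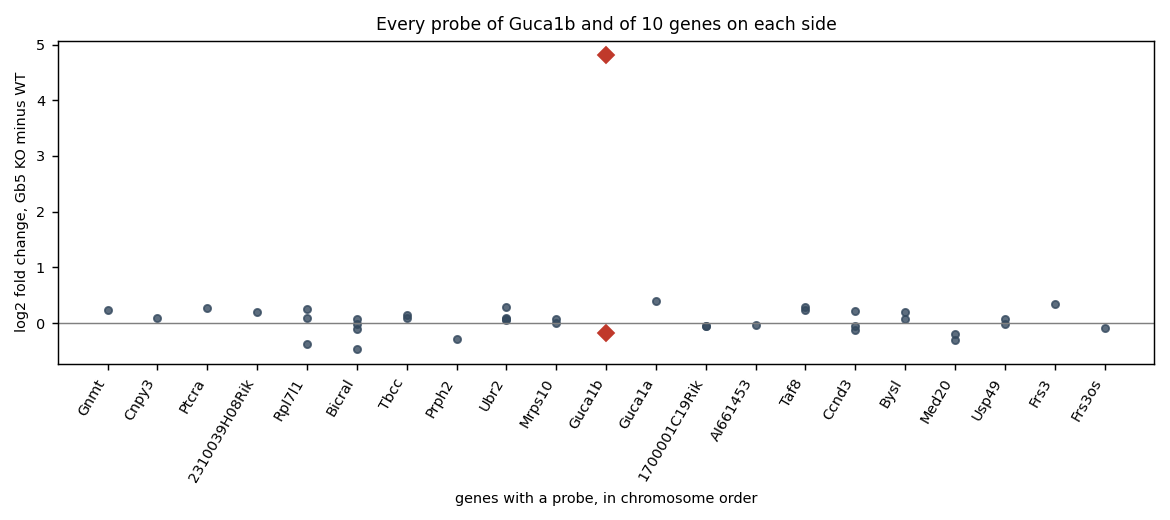
Log2 fold change of Gb5 KO minus WT (vertical axis) for both Guca1b probes (red) and every probe of the 10 genes on each side with a probe, in chromosome order (horizontal axis, not to scale). The neighbours lie between -0.47 and 0.39.

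The probes most like Guca1b probe 1425138_at over the 6 arrays were sought by Pearson's r among single-gene probes above the 30th percentile of signal with a range of at least 1 (log2). These 6 arrays fall into 2 genotypes, so r mainly reflects that split and is given as a description. The closest were Rprd2, a regulator of nuclear pre-mRNA (r = 0.963; log2 fold change 0.94), 1700028P14Rik (r = 0.941; 0.84), the alpha-arrestins Arrdc4 (r = 0.938; 1.15) and Txnip (r = 0.938; 0.72), and Hyi (r = 0.938; 0.85). All 5 were higher on every Gb5 KO array than on every WT array, as 8.25% of all probes were, a pattern that the choice by r favours; none passed the test. The most opposite were Gnb5 (r = -0.994), Tmem30a, a subunit of phospholipid flippases (r = -0.985), the actin-capping Tmod3 (r = -0.981), the collagen Col12a1 (r = -0.979) and the antiviral gene Rsad2 by probe 1436058_at (r = -0.978). All 5 were among the 10 probes that passed, a share of 0.0222% of all probes. The choice by r favours such clear falls as well, so their passing is no separate result. Within the family, r was 0.844 for Guca1a and 0.741 for Ncald probe 1417568_at, against -0.839 for the second Guca1b probe and -0.781 for Ncs1 probe 1450146_at, and it lay between -0.557 and 0.663 for the other 11 probes.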

How the data were processed

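Trizol-extracted total RNA was turned into biotinylated cRNA for single-colour arrays, per the labels' protocols. The deposited values are on the log2 scale. RMA and Partek are named in the submitters' processing notes without a version or a test; RMA corrects background, quantile-normalizes arrays and summarises each probe set, so a global change in RNA would not be seen.

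Of 45101 probes 64 controls were left out. The platform annotation named 1 gene for 34945 of the remaining 45037 probes, 932 probes had several genes and 9160 none; symbols were updated through a RefSeq table (GRCm38.p6) for 34754, used otherwise for gene order and to look up the probes' source transcripts. Each probe was fitted with limma 3.58.1 in R 4.3.3 (Gb5 KO minus WT, empirical Bayes with an intensity trend, two-sided, Benjamini-Hochberg over 45037 probes, threshold 0.05, no filter on dim probes), and the fit was tested on simulated data. Permutation of 3 against 3 arrays cannot go below p = 0.1. The labels name the arrays biological replicates. Members, lists and tests were chosen with earlier results of these data known. Alternatives were filters, gene-level values, scalings, variance models, array weights, thresholds and each array left out. Genes named are the members, up to 2 of the largest changes of each related list, the neighbours and the 5 most alike and most opposite probes, and any further gene was picked with its values in view. Listed genes without a single-gene probe were not analysed here.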

Additional observations from a re-analysis of the deposited data

How the results depend on the processing

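Of the 8 relatives of Guca1b 0 probes, or genes where probes were merged, passed by limma in any alternative tried, and the log2 fold change of Guca1b probe 1425138_at lay between 4.66 and 4.93 in all alternatives that kept it as a probe of its own (the mean of both Guca1b probes was used only for counts). The number of probes passing over the whole table, 10 as reported, was 4 with probes above the 50th percentile of signal, 5 with 1 probe per gene above the 30th percentile (11 with that filter alone), 17 with array medians subtracted, 16 with array weights and 16 at an adjusted p of 0.1. With single arrays left out it lay between 6 and 24. Values near 0 changed sign. Vsnl1 probe 1420955_at gave 0.0197 with a second quantile normalization and 0.0539 with array weights, and from -0.0784 to 0.0754 with single arrays left out. Vsnl1 probe 1450055_at gave -0.0280 with array weights and from -0.15 to 0.23 with single arrays left out. Over single arrays left out Ncald probe 1417569_at ran from -0.37 to 0.13, Rcvrn from -0.24 to 0.0393 and Ncs1 probe 1434887_at from -0.0617 to 0.0267. The cause of these shifts was not tested. No paired analysis was possible because the genotypes share no replicate numbers. The planned pseudocount applies to linear values and was not run on log2 values. Dim probes, among them both Guca1b probes in WT, Guca1a and Rcvrn, sit where RMA signal compresses differences, and no detection calls were used here.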
